A study of Mus musculus with 8 samples.

Results

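Chromatin of the STAT3 knockout mouse melanoma line 113 was more open than that of the other 3 lines of the study at a set of regions away from gene ends. A region was taken into the set when it lay on an autosome, more than 1 kb from either end of every protein-coding gene, when both libraries of line 113 reached at least 4 CPM, and when the lower of these was at least 3 times the highest of the 6 libraries of the other lines. CPM is the count of a region divided by the library's total over the table, per 1000000. The rule selected 330 regions, out of 126844 distal autosomal regions and 148664 regions in all. They are called the line 113 regions here. The same rule turned to each other line selected 384 (line 112), 3515 (line 119) and 2628 (line 73) regions. Because the regions were chosen by the measured accessibility (CPM) of all 8 libraries, the excess of line 113 at these regions is described and not tested.

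ATAC-seq inserts sequencing adapters into accessible DNA with a transposase, so the number of reads over a region measures how open its chromatin is. The samples were 8 libraries of 4 melanoma lines, 2 replicates per line. Lines 112 and 113 carry the STAT3 knockout label (Stat3∆ in the growth protocol). Lines 119 and 73 are labelled wild type, and the protocol calls that genotype Stat3fl, the usual notation for a floxed allele. Per the labels, all 4 were grown from lymph node cells of mice whose skin melanoma began at about 25 to 30 weeks of age. The protocol speaks of primary pools of cells, while the sample labels call each line a clone. The promoter that drives the recombinase, the oncogene, and whether the 2 replicates of a line are separate cultures are not given in the sources used here. Each genotype is represented by 2 lines, so a feature of line 113 alone cannot be told apart from the history of that line. The titles carry a number after the letter p, 44 (line 113), 18 (line 112), 14 (line 119) and 68 (line 73), whose meaning is not stated.

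Distal accessible regions include enhancers, the stretches of DNA where transcription factors bind and act on genes that can lie far away. They vary more between cell states than promoters do, and melanoma cells are known to move between a pigmented state driven by the factors MITF and SOX10 and less differentiated states. STAT3 is a transcription factor that cytokine receptors activate through JAK kinases.

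Library totals ran from 2697546 counts (line 112 replicate 2) to 7464336 (line 119 replicate 1), and the number of peak calls from 20387 to 94906 in the same 2 libraries. Line 113 had totals of 5029386 and 4450860. A count of 3, below which a region cannot be told from 0, corresponds to between 0.402 and 1.11 CPM. Summed over the gene ends of 9 melanocyte markers, accessibility was 315 and 291 CPM in line 113, somewhat lower in line 112 (243 and 212), and between 119 and 129 in the 4 wild-type libraries. Line 113 thus had all 9 markers accessible, with Mlana lowest at 10.1 and 8.31 CPM. Over markers of other cell types its sums were 19.3 and 21.3 CPM for lymphocytes and leukocytes (5 of 7 genes with a region), 6.76 and 4.27 for macrophages (2 of 3), 42.0 and 39.3 for fibroblasts (5 of 5), 3.98 and 4.49 for endothelium (1 of 4) and 0.795 and 0.899 for keratinocytes (1 of 3). The ranges in the other 6 libraries were 21.8 to 30.0, 1.57 to 14, 39.8 to 113, 2.25 to 7.77 and 0.349 to 7.78 CPM. Ptprc, Csf1r, Pecam1 and Krt5 had no region at their ends. The 3 regions at the ends of Stat3 gave 33.8 and 34.8 CPM in line 113 against 32.8 and 31.1 in line 112. In the wild-type lines they gave 18.9 and 18.8 (line 119) and 34.8 and 25.6 (line 73). Accessibility at the gene ends says nothing of a deletion inside the gene.

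Some of the line 113 regions lie on the promoter of a gene or on a microRNA. The stretches inside the regions are given first, because there part of the region's sequence can be printed. Sequences are from RefSeq, build GRCm38.p6. Of each promoter, the 250 bases before the start site, only the bases that lie inside the line 113 region are printed, on the strand of the gene, and capitals mark matches to the motifs listed after them. In the microRNA, capitals mark the seed, bases 2 to 8. The promoter of Adgb (androglobin), chr10:10472400-10472649 on the minus strand, and that of the non-coding gene Gm32429, chr8:10747258-10747507 on the minus strand, lie wholly inside a line 113 region. The regions cover 139 bp of the promoter of Cnpy1, positions 112 to 250, at chr5:28210169-28210307 on the minus strand. Of the Gm31816 promoter they cover 138 bp, positions 1 to 138, at chr9:47362870-47363007 on the minus strand. Of the Fhitos promoter they cover 190 bp, positions 1 to 190, at chr14:10738303-10738492 on the plus strand. A start in the promoter table need not be an outer end of a protein-coding gene, which is how these regions still count as distal.
Adgb: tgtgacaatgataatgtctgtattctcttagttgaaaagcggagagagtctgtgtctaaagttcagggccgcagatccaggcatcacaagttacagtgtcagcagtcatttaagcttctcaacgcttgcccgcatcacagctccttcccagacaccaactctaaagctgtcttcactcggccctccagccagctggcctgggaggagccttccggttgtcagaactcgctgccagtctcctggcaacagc
Gm32429: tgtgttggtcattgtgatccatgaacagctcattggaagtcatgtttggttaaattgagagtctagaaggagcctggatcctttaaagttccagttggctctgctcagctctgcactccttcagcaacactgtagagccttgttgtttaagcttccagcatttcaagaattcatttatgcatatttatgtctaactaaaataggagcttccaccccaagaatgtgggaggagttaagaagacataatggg
Cnpy1: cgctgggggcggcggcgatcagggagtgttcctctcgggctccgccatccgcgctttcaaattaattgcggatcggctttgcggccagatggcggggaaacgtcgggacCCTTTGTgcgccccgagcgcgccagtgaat
Gm31816: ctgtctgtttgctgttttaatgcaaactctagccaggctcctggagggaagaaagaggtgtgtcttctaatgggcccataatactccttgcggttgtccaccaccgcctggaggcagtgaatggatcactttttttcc
Fhitos: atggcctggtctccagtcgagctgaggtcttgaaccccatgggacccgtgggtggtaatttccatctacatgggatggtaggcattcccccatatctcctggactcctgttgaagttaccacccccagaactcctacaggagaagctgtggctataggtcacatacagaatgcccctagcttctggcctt
mmu-miR-1960: cCAGUGCUguuagaagagggcu

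The region that holds the hairpin of Mir1960, chr5:30170395-30170907, covers the mature microRNA at chr5:30170751-30170772 on the plus strand. It gave 6.96 and 6.74 CPM in line 113 against 1.25 and 1.11 in line 112, and the wild-type values were 0.402 and 1.92 (line 119) and 0.00 and 0.507 (line 73). The region at the Adgb promoter gave 17.1 and 17.3 CPM in line 113, while the other 6 libraries lay between 1.6 and 3. At Gm32429 the values were 18.5 and 18 in line 113 against 1.22 to 5.56 elsewhere, with line 112 the next highest. The Cnpy1 region gave 9.54 and 12.6 CPM in line 113 against 0.67 to 2.97 elsewhere. The Gm31816 region gave 21.5 and 17.1 against 0.507 to 5.56, and the Fhitos region 5.77 and 6.74 against 0.253 to 1.48. These counts belong to whole regions, so the accessibility of the printed stretches by themselves was not measured. The highest other value was bounded by the rule.

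Matches were searched on both strands, by exact letters, for AP-1 (TGANTCA), CRE (TGACGTCA), M-box (TCACGTG), the E-box that lies inside the M-box letters (CACGTG), the related E-box of ZEB factors (CACCTG), SOX (ACAATGG) and its other listed form (ACAAAGG), TEAD factors (GGAATGT), the RUNX family (TGTGGTT), STAT (TTCCNGGAA), C/EBP (TTGCGNAA and TTGCATCA), ETS (CCGGAAGT and CAGGAAGT), NF-kB, GATA factors (AGATAA), forkhead FOX factors (TGTTTAC), TFAP2 (GCCNNNGGC), NFI, PAX or homeobox (TAATTA), LEF/TCF, GRE and CTCF. In the covered stretches 1 match was found, ACAAAGG on the other strand at positions 221 to 227 of the Cnpy1 promoter, counted from its 5′ end (110 to 116 of the printed sequence). Of 32536 promoters, 2.91% held these letters in the same window, positions 112 to 250. None of the listed motifs occurred in the covered stretches of Adgb, Gm32429, Gm31816 and Fhitos. A match describes letters only and does not show a bound factor.

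The median line 113 region had 11.5 and 9.66 CPM in the libraries of line 113. Its medians were 1.75 and 2.22 CPM in line 112, against 1.07 and 1.05 (line 119) and 0.687 and 0.760 (line 73) in the wild type. The order of the 3 other lines was therefore 112, 119, 73. In CPM all distal regions had the same order, with medians of the line means of 3.3, 3.14 and 2.2 CPM. Over distal regions the order of lines 112 and 119 depends on the scaling. In the fit described below, their median log2 difference, line 112 over line 119, was 0.08 with column totals. With TMM library sizes, which correct for composition, it was -0.10. At the line 113 regions the median count was 3 to 8 reads per region and library, against 58 and 43 in line 113. Single values from the other lines are thus imprecise, and 24 and 28 regions had no read in the libraries of line 73. No region lacked reads in all 6 other libraries. The lower line 113 value was 3 to 15.8 times the highest other value, with a median of 3.58; it was at least 5 times at 55 regions and at least 10 times at 6.

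**Figure D1:**
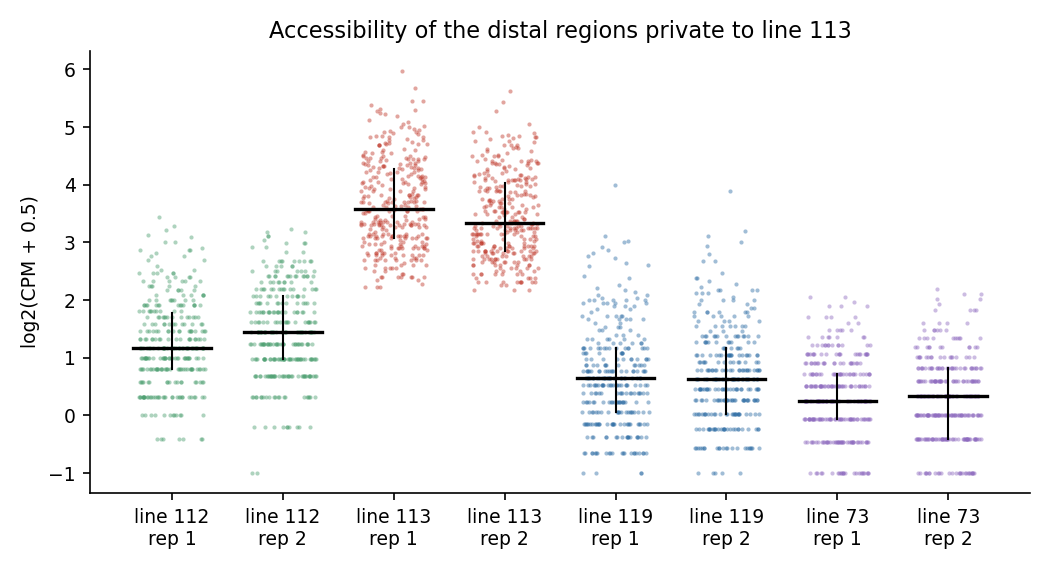
Accessibility of the line 113 regions in each library as log2(CPM + 0.5), 1 point per region, with the median as a horizontal line and the middle 50% as a vertical line. The separation of line 113 (medians 11.5 and 9.66 CPM) is set by the selection. Among the other lines, line 112 lies highest and line 73 lowest, an order that all distal regions have too.

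The 2 libraries of line 113 ranked the regions alike (Pearson r = 0.897 of log2 values across the 330 regions, a description across regions of 2 libraries). Replicate 1 was the higher at 242 regions (73.3%), whereas it was the higher at 54.1% of the 33475 distal regions with at least 4 CPM in both libraries. The set is selective: 9899 of those 33475 regions had both line 113 libraries above all 6 others, 1339 by at least 2 times, and 330 by at least 3 times. Just inside the CPM threshold were regions near Lcorl, Trip12 and Ankrd50, all with 4.04 CPM in the lower line 113 library. Just outside were regions near Dnah5, Obp2b and Pag1, all with 3.82. At the threshold of 3 times, regions near Gm11232, Zbtb38 and Galm stood at 3, 3.01 and 3.01, and regions near Dse, Fhod3 and Dlgap2 at 2.99, 2.99 and 2.98. The count rests on the scaling and on single libraries. Leaving out libraries can only raise it, because fewer values then have to meet the rule. With TMM library sizes, which correct for composition, the rule gave 667 regions that include all 330. Without replicate 1 or 2 of line 112 it gave 620 and 788, without replicate 2 of line 113 it gave 950, and without both libraries of line 112, an alternative chosen after seeing the data, it gave 5057. At most of these 5057 regions line 112 thus exceeded the permitted level, which need not mean that it was open there. In distal regions without a peak call in any library, line 112 had a median of 2.54 CPM. Lines 119 and 73 had 0.972 and 1.09 CPM there. How far this general level of line 112 sets the count was not tested.

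The authors' peak calls come from the same reads as the counts and describe the regions in another way. A line 113 peak overlapped 316 of the 330 regions (95.8%) in both libraries and 3 in neither, against 23.0% in both for all distal regions. A peak of line 119 overlapped 48 (14.5%), one of line 112 overlapped 14 (4.24%) and one of line 73 overlapped 1 (0.303%). Over all distal regions the shares with a peak of lines 119, 112 and 73 were 63.1%, 20.3% and 37.5%. In the set, 55 regions (16.7%) had a call in some other library. Among all distal regions 79.4% had one. The peaks over the line 113 regions had a median fold over background, as the authors' caller gives it, of 9.07 and 7.93 in line 113 and of 4.77 in line 112 replicate 1. Line 112 had the fewest peak calls in all, and its small number here was not separated from that. Its replicate 1 had 38743 calls at 3993473 counts, and replicate 2 of line 73 had 56096 calls at 3945177 counts. The cause of the low number of calls in line 112 was not tested.

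The strongest region lay outside genes, 52.6 kb from an end of Adgrl2, which encodes latrophilin 2, an adhesion G protein-coupled receptor (chr3:148761872-148763023). It gave 62.4 and 42.7 CPM in line 113 against 5.01 and 8.16 in line 112, and the wild-type values were 1.74 and 2.09 (line 119) and 1.83 and 1.27 (line 73). Per kilobase of region, the highest level was at a region 36.5 kb from an end of Auts2, with 70.2 CPM per kb, ahead of the Kit region at 57.8 and the Adgrl2 region at 45.6. Other regions among the 10 with the highest line 113 level lay near genes of varied kinds. They included Cntnap5b, of the contactin-associated neurexin family, at 43.5 and 38.4 CPM and as far as 1680 kb from the nearest gene end. Txnrd2, the mitochondrial thioredoxin reductase, held 1 in its gene body with 41.4 and 29.7 CPM. Near S1pr1, a receptor for sphingosine 1-phosphate, a region gave 32.0 and 32.8 CPM. The remaining ones were assigned to Depdc7, Dcdc2a, Zbtb10, Mfsd14b and Cyb5a, with means over the 2 libraries of 32.3 to 35.2 CPM. At each of these regions both line 113 libraries stood above the other 6, which was the condition of selection.

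The largest ratio, a region picked out after its values were seen, lay 285 kb from the homeobox gene Irx2 (chr13:72338868-72339368). It gave 19.3 and 17.5 CPM in line 113 against 0.250 and 1.11 in line 112, and the wild-type values were 0.134 and 0.174 (line 119) and 0.229 and 0.00 (line 73). Another region, 243 kb from Irx2 and 42.4 kb from end to end with the first, gave 6.96 and 9.21 CPM in line 113 and at most 1.11 elsewhere. The other 10 distal regions assigned to Irx2 did not share this level: the median log2 ratio of line 113 to the mean of the other 3 lines (0.5 CPM added to both) was -0.96 there, and in 1 of the 10 both line 113 libraries lay above all others.

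Regions were assigned to the gene whose body holds them, or else to the gene of the nearest end, and 278 genes received at least 1. Auts2, a gene of neuronal development whose protein acts on transcription in the nucleus, received most, 8 of its 72 distal regions over 999 kb. Of these 3 lay in the gene and 5 beyond it, 36.5 to 628 kb from its nearer end. The strongest, chr5:132579738-132580447, gave 50.9 and 48.8 CPM in line 113 against 1.75 and 4.82 in line 112, and the wild-type values were 15.4 and 14.3 (line 119) and 0.687 and 2.28 (line 73). Line 119 was the next highest there, far above its medians of 1.07 and 1.05 CPM over the whole set. The other 7 ranged from 4.22 to 23.6 CPM as the mean of line 113. The 64 distal regions of Auts2 outside the set also leaned to line 113, with a median log2 ratio of 1.05 over the other lines, and in 26 of them both line 113 libraries lay above all 6 others.

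**Figure D2:**
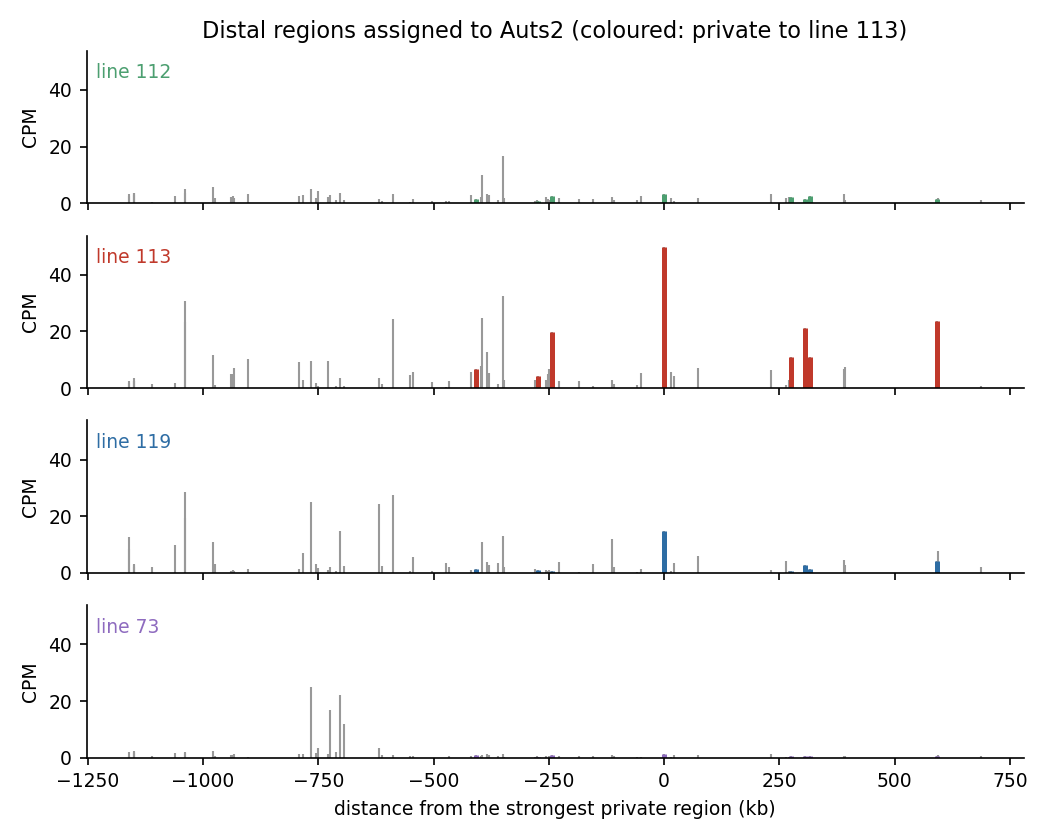
Mean CPM of the 72 distal regions assigned to Auts2 in each line, by distance in kb from the strongest line 113 region. Coloured bars are the 8 line 113 regions and grey bars the other 64; the bar at 0 kb reaches 49.8 CPM in line 113 and 14.8 in line 119.

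The adhesion genes Cdh11 and Sdk1 followed with 4 regions each. The regions of Cdh11, a cadherin of mesenchymal cells, spanned 989 kb and had 7.15 to 21.2 CPM as the mean of line 113. Those of Sdk1, an immunoglobulin-family adhesion protein of synapses, spanned 463 kb with 6.35 to 14.5 CPM, and were 4 of only 22 distal regions of the gene. In both genes the remaining distal regions leaned the same way, with median log2 ratios of 0.54 (55 regions) and 1.34 (18 regions) against -0.44 over all 126514 distal regions outside the set. Genes with 3 regions were Zbtb10, Tpd52, Fat4, Lcorl, Noct, Ankrd50 and Foxo1. Among those with 2, Rell1, Fam184b, Defb41, Fhit and Myo16 had the highest summed accessibility in line 113. At Fam184b 2 of 5 distal regions were in the set.

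Regions close to the line 113 regions leaned to line 113 too, and the lean declined with distance. Distal regions outside the set within 5 kb of a member had a median log2 ratio of line 113 to the other lines of 0.40 (229 regions). It was 0.09 at 5 to 20 kb, -0.07 at 20 to 50 kb and -0.22 at 50 to 200 kb. Chained at gaps of up to 50 kb, 45 of the 330 regions (13.6%) stood in 21 groups of at least 2, while the shares were 26.0% of the line 112 set, 31.9% of the line 119 set and 36.0% of the line 73 set, which differ in size. Of the line 112 set, 247 of 384 regions (64.3%) lay on chromosome 6 alone. The largest group held 4 regions over 56.3 kb between Ankrd50, an endosomal recycling protein, and the protocadherin Fat4. Their summed accessibility was 38.1 CPM in line 113 against 7.40 (line 112), 4.34 (line 119) and 3.05 (line 73). The next held 3 regions beyond Auts2 over 41.8 kb, which were all the distal regions there, with 43.4 CPM in line 113 and 6.33, 5.15 and 1.78 in lines 112, 119 and 73. Pairs followed in Rell1 (42.2 CPM summed in line 113), in Fam184b (36.1) and near Defb41 (35.4).

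The line 113 regions lay farther from gene ends than distal regions as a whole. The median distance to the nearest end of a protein-coding gene was 57.9 kb, against 30.9 kb over all distal regions, and 128 regions (38.8%) lay beyond 100 kb against 22.6%. Regions private to line 119 lay farther still, at a median of 72.4 kb, while those private to line 73 had 37.7 kb and those private to line 112 had 30.7 kb (31.8 kb without chromosome 6). Gene bodies held 176 of the 330 (53.3%, exact 95% interval 47.8 to 58.8%, counting error only), close to the 51.9% of all distal regions. The gene table gives spans without exons, so introns and exons were not separated. The median width of the regions was 588 bp, against 568 bp over all distal regions.

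**Figure D3:**
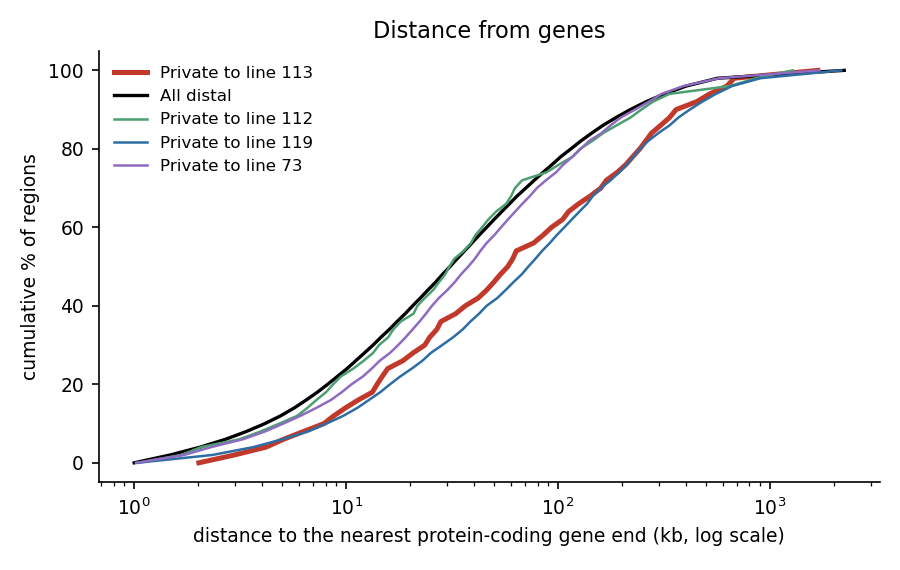
Cumulative percent of regions by distance to the nearest protein-coding gene end (kb, log scale), for the line 113 regions, all distal autosomal regions and the regions private to each other line. The line 113 curve (median 57.9 kb) runs near that of line 119 (72.4 kb) and to the right of all distal regions (30.9 kb).

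The regions were spread unevenly over the chromosomes. Chromosome 3 held 65 of them, 7.95 per 1000 distal regions, chromosome 5 held 45 (6 per 1000) and chromosome 16 held 24 (5.16 per 1000), against 2.60 per 1000 over all autosomes. These 3 chromosomes, singled out after the values were seen, hold 40.6% of the line 113 regions and 16% of the distal regions. Chromosome 6 held 2 regions (0.237 per 1000) and chromosome 19 held 12 (3.54 per 1000). The share of a library's reads that falls on a chromosome moved with this in part. It was taken in autosomal regions without a peak call in any library. Its log2 ratio, line 113 over the mean of the others, correlated with the rate across autosomes (Pearson r = 0.606). Chromosomes 2 and 4 had ratios of 0.14 and 0.15, near the 0.14 of chromosome 3, but held 1.96 and 2.79 per 1000. The log2 ratio of that share in line 113 to line 112 was 0.42 on chromosome 3 and 0.30 on chromosome 5. On chromosome 16 it was 0.16, and on chromosome 6 it was -0.75. Against line 119 it was -0.01, 0.03, 0.01 and 0.02 on the same chromosomes. Against line 73 it was 0.06, -0.04, 0.37 and -0.10. Chromosome 19 was the one with the largest positive offset of line 113 over the mean of the others (0.26), and there it held against each line, at 0.29 (line 112), 0.32 (line 119) and 0.18 (line 73). The offsets on chromosomes 3, 5 and 6 were thus largest towards line 112, whose own share was 0.823 and 0.782 of the mean of the 8 libraries on chromosome 3 and 1.4 and 1.43 on chromosome 6. When CPM was divided by these chromosome shares, an alternative chosen after seeing the data, the rule gave 251 regions, of which 224 were among the 330 (67.9%). Chromosome 3 then held 34, chromosome 5 22, chromosome 16 18 and chromosome 6 21, while chromosome 19 fell from 12 to 3 (0.885 per 1000). The number of copies of each chromosome in these lines was not tested.

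**Figure D4:**
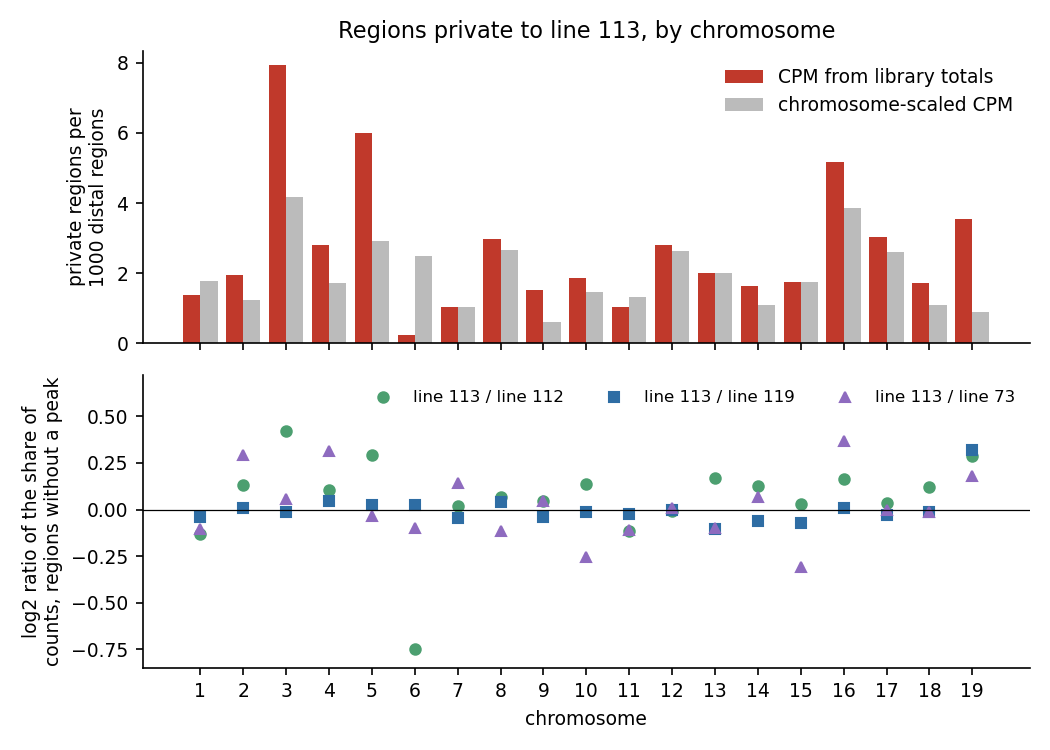
Upper panel, line 113 regions per 1000 distal regions on each autosome, with CPM from library totals (red) and with chromosome-scaled CPM (grey). Lower panel, log2 ratio of the chromosome's share of counts in regions without any peak call, line 113 over each other line; chromosome 3 falls from 7.95 to 4.16 per 1000 with the scaling and chromosome 6 rises from 0.237 to 2.48.

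Of the gene lists looked at, the melanocyte and pigmentation list had 1 region out of 319 distal regions, and it lay in Kit, the receptor of stem cell factor on which melanocytes depend. This region, chr5:75653405-75653941, lies in the gene body 2.78 kb from its nearer end. It gave 39.2 and 22.9 CPM in line 113 against 2.00 and 4.08 in line 112, and the wild-type values were 0.804 and 1.74 (line 119) and 0.229 and 1.01 (line 73). The region at an end of Kit was also highest in line 113 but was less confined to it, with 47.7 and 35.7 CPM in line 113 against 25.5 and 27.1 in line 112, and the wild-type values were 12.5 and 12.0 (line 119) and 4.58 and 7.60 (line 73). The other 28 distal regions of Kit had a median log2 ratio of 0.40 to the other lines. The lists were chosen with earlier results of these data known, and their counts are descriptions.

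Axon guidance and neural adhesion genes held 7 line 113 regions among 853 distal regions, 8.21 per 1000 against 2.60 per 1000 of all distal regions. The same genes held 47 regions private to line 119 (55.1 per 1000 against 27.7 of all distal regions), 15 private to line 73 (17.6 against 20.7) and 3 private to line 112 (3.52 against 3.03). The line 113 regions fell on 6 of the 20 genes: Slit2 (2 regions), a secreted repellent, its receptors Robo1 and Robo2, the secreted semaphorin Sema3a, and the ephrin receptors Epha5 and Epha7. All but the Epha7 region lie on chromosomes 5 and 16, where the whole set was dense, and 1 of the 7 lay within 50 kb of a gene end. The stronger Slit2 region, inside the gene, gave 17.7 and 13.0 CPM in line 113 against 1.00 and 2.97 in line 112, and the wild-type values were 0.536 and 0.523 (line 119) and 0.687 and 0.507 (line 73). The Epha7 region lay 694 kb away and gave 11.5 and 11 CPM in line 113 and at most 3.14 elsewhere.

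The STAT3 pathway list had 1 region of 164, beside Jak1, a kinase that phosphorylates STAT3, at 13.7 kb from the gene end. It gave 13.7 and 14.2 CPM in line 113 against 4.26 and 1.48 in line 112, and the wild-type values were 1.07 and 1.05 (line 119) and 0.458 and 0.507 (line 73). The extracellular matrix list had 1 of 485, inside the laminin gene Lama2, with 21.3 and 20.7 CPM in line 113 and at most 4.45 elsewhere. The keratinocyte markers had 1 of 20, 111 kb from Trp63, with 10.3 and 6.07 CPM in line 113. The lists for C/EBP factors (33 distal regions), for the invasive and dedifferentiated state (490), for TGF-beta and BMP (469) and for Wnt (449) had none, nor did the markers of lymphocytes, macrophages, fibroblasts and endothelium (5 to 92). At the overall rate of 2.60 per 1000, few regions fall in lists of this size. A region 114 kb from an end of Ppargc1a, a coactivator of mitochondrial genes, also touched 9 bp of a promoter of that gene, and gave 15.7 and 14.4 CPM in line 113, 4.26 and 4.08 in line 112 and at most 1.74 elsewhere.

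The rule capped the values of the 6 other libraries but did not set their order, and what these libraries showed at the line 113 regions is given as a description. In CPM, both libraries of line 112 lay above all 4 wild-type libraries at 170 of the 330 regions (51.5%), where 25.0% of all distal regions had that order, and below all 4 at 3 (0.909%, where all distal regions had 12.9%). Line 112 had the highest mean of the 3 other lines at 265 regions (80.3%), line 119 at 50 and line 73 at 15. Over all distal regions these shares were 39.2%, 34.4% and 26.4%. Among distal regions outside the set with at least 4 CPM in both line 113 libraries, line 112 was highest at 51.3%. With TMM library sizes line 112 was highest at 70.6% of the line 113 regions, and both its libraries lay above all 4 wild-type libraries at 145. The shares of all distal regions given here are in CPM and were not computed with TMM library sizes.

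The fit across all regions (edgeR's quasi-likelihood test with Benjamini-Hochberg adjustment, adjusted p under 0.05) called line 112 higher than the mean of lines 119 and 73 at 112 of the 330 regions and lower at 1. Over the 134068 regions tested, 23.0% were called higher and 20% lower. These counts support no difference between the set and other regions, because the rule used the values of these 6 libraries and because line 113 carried most of them through the filter on low counts. Without the libraries of line 113 only 118 of the 330 were tested, of which 71 were higher and 0 lower (78 and 1 at an unadjusted p under 0.05). Over all 126650 regions tested in that fit, 29336 were higher and 25162 lower. The median log2 fold change was 0.99 at the line 113 regions and 0.06 over distal regions. In distal regions without a peak call in any library it was 1.11, a set that low values in these same libraries define too. With column totals in place of TMM, which moved the median of all regions from 0.01 to 0.21, the calls at the line 113 regions were 137 higher and 0 lower (1 lower at an unadjusted p under 0.05), and over all regions 37550 and 20710 in place of 30808 and 26837.

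The regions with the smallest p in that contrast lay near Cyb5a, Nsun3 and Defb41 and inside Mfsd14b and Sorcs3. The region near Cyb5a, which encodes cytochrome b5, had 6.76 and 8.53 CPM in line 112 and 36.8 and 27.9 in line 113. Lines 119 and 73 had 0.536 and 0.697, and 1.6 and 1.27, a log2 difference of 2.76 ± 0.39 (SE of the fit, n = 2 libraries per line). At Sorcs3, a sorting receptor of neurons, line 112 had 3.26 and 5.19 CPM and the wild-type libraries 0.268, 0.00, 0.916 and 0.00. The fitted log2 difference of 3.56 ± 0.59 (SE) rests on wild-type counts of 4 or fewer, and it ranged from 3.09 to 5.75 when single libraries were left out, the highest without replicate 1 of line 73 (4.85 without replicate 1 of line 119). The region called lower lay 19.4 kb from Zfp704, a zinc finger gene, where line 112 had 0.501 and 0.371 CPM and the wild-type libraries 1.34 to 1.52. Its counts were 2 and 1 in line 112 and 35 and 27 in line 113. Without the libraries of line 113 it did not pass the filter on low counts and was not tested. Leaving out either library of line 112, of line 119 or of line 73, or replicate 1 of line 113, ended that call. The other 4 regions with the smallest p among those with a negative log2 difference were assigned to Snx18, Auts2, Ank2 and Med13l and did not pass. The Ank2 region, too, was not tested without the libraries of line 113. The Auts2 region passed when replicate 2 of line 112 or replicate 1 of line 73 was left out, with log2 differences of -1.51 and -1.16 in place of -0.82.

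The single pairs of lines, under the same limits, gave these counts. In each fit below that left out a library, the calls of the same direction over all regions tested fell too. Against line 119 alone, line 112 was called higher at 77 regions and lower at 8 (21.1% and 26.8% of all regions tested). Without replicate 1 of line 119, 43 were higher and 2 lower. Without replicate 1 of line 112 the lower calls fell to 1, and without replicate 2 of line 119 they were 4. Against line 73 alone it was called higher at 115 and lower at 1 (26.4% and 25.5%), and without replicate 1 or 2 of line 73 higher at 74 and 68. Line 119 was called higher than line 73 at 72 regions and lower at 12, which are 21.8% and 3.64% of the set, under the shares of all regions tested (31.9% and 26.8%). Without replicate 1 or 2 of line 73 the higher calls were 34 and 43, and without replicate 1 of line 119 the lower calls were 4.

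The smallest p in favour of line 119 were at the strongest Auts2 region described above, inside Kazn and near S1pr1. At the S1pr1 region lines 119 and 112 had close values, with 8.17 and 7.15 CPM and with 7.51 and 6.67, and line 73 had 0.00 and 1.01. In favour of line 73 were regions inside Galm and near Kcna4, a potassium channel gene, and Nr2f1, a nuclear receptor gene of neural crest and brain. Near Nr2f1 line 73 had 2.06 and 3.04 CPM, line 119 0.670 and 0.523, line 112 2.00 and 1.85, and line 113 20.9 and 14.8. Of the 48 line 113 regions with a line 119 peak, the mean of line 119 ran from 1.92 to 14.8 CPM with a median of 3.25, and 7 of them also had a line 112 peak.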

How the data were processed

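The authors deposited raw counts for 148664 regions in 8 libraries, and a peak list per library with a score, a fold over background (a ratio) and -log10 p and q values per peak. Bowtie2 2.2.4, Picard 1.118 and MACS2 2.1.1.20160309 and the builds mm10 and GRCm38 are named in the submitters' processing notes, without their roles. How duplicates were treated, whether reads or transposase cuts were counted and whether positions were shifted is not given in the sources used here. Counts may thus include PCR duplicates, and intervals cover counting error only.

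From the deposited counts, CPM was computed from column totals. Distances are to the ends of 21883 protein-coding genes of RefSeq (GRCm38.p6). edgeR 4.0.16 (R 4.3.3) was fitted to all 8 libraries with a mean per line (TMM, filterByExpr, robust quasi-likelihood, two-sided), with Benjamini-Hochberg adjustment over all regions tested and a threshold of 0.05. The scripts were tested on simulated data. DESeq2 1.42.0 was an alternative. A peak call counted at an overlap of at least 1 bp. Nothing says that replicates were separate cultures, so p-values measure the spread between these libraries, which may be technical. The regions, gene lists and tests were chosen with earlier results of these data known. Regions named were the 10 with the highest line 113 level, those beside each threshold, up to 15 genes and 5 groups with most regions, up to 4 genes per list, and the 5 (line 119 against 73: 3) with the smallest p in each direction. The motif search over promoters and the sequence overlaps were added after the files were seen.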

Additional observations from a re-analysis of the deposited data

How the results depend on the processing

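The number of line 113 regions, 330 as reported, was 198 at a minimum of 8 CPM, 1339 at 2 times and 55 at 5 times the highest other library, 667 with TMM library sizes, 729 with DESeq2 size factors and 5057 without both libraries of line 112. Leaving out each library in turn gave 335 to 950, where the rule allows only a rise. A minimum of 2 CPM, a distance of more than 5 kb, a line 113 peak call and chromosome-scaled CPM kept it within 1.5 times.

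Calls of line 112 against the mean of lines 119 and 73 were 112 higher and 1 lower. They were 74 and 0 by the DESeq2 Wald test (116 and 0 at an unadjusted p under 0.05), 71 and 0 without the libraries of line 113, and 0 lower with column totals only or with at least 20 counts on average (where 140 regions were tested); leave-one-out gave 79 to 108 higher and 0 to 1 lower. Against line 119 the DESeq2 Wald test gave 44 and 2, the fit without line 113 gave 46 higher, and column totals or at least 20 counts on average gave 4 lower each; leave-one-out gave 43 to 83 and 1 to 8. Against line 73 the DESeq2 Wald test gave 74 and 0. DESeq2 size factors in edgeR and no filter on low counts gave 2 lower each, and column totals or at least 20 counts on average gave 0 lower; leave-one-out gave 68 to 109 and 0 to 2. For line 119 against line 73 the DESeq2 Wald test gave 39 and 7, and at least 20 counts on average or the fit without line 113 gave 4 lower each; leave-one-out gave 34 to 73 and 4 to 16. Over all 134068 regions, the DESeq2 Wald test called 20087 higher and 17591 lower in the first of these 4 contrasts. In the other contrasts, in the same order, it called 15532 and 22009, 22566 and 25056, and 29666 and 25830. Where fewer regions or libraries entered, fewer calls follow from the construction. Otherwise the cause was not tested.

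The share of regions with line 112 above both wild-type lines was 80.3%, 70.6% with TMM library sizes and 72.7 to 79.1% in leave-one-out. The number with both line 112 libraries above all 4 wild-type libraries, 170, was 145 with TMM library sizes. It was 180 to 238 in leave-one-out, where fewer libraries have to be in order. In leave-one-out the lone library of a line is assumed to vary like the others. No named region reversed: 223 of 234 values for 16 entries, each a region in a contrast, kept their side of the threshold, 9 (all at Zfp704) lost it and 2 (at Auts2) passed it. The strongest Auts2 region was named in both contrasts and is counted in each. Groups of neighbouring regions were 11 in place of 21 at gaps of up to 20 kb. Requiring a peak to cover 50% of the region left 1 region with a call in line 112 replicate 1 in place of 13, and 15 and 11 in line 119 in place of 46 and 30.

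The replicate numbers did not pair the libraries: deviations of same-numbered libraries correlated at -0.0378 to 0.00422. With the replicate block, 113, 77, 113 and 69 regions were called higher in the 4 contrasts, in the order given above. The share of motifs in the line 113 regions and its 2 alternatives were not run, since they need a genome that was not used here. With a median of 3 to 8 counts per region in the other lines, small differences among them were not detectable at this depth.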
